A study of Mus musculus with 38 samples.

Results

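The SOX2, HSF1 and HSF2 sites around 10 textbook targets of OCT4 and SOX2 in mouse embryonic stem cells are described here: *Fgf4*, *Utf1*, *Lefty1*, *Lefty2*, *Fbxo15*, *Zfp42*, *Dppa4*, *Dppa5a*, *Tdgf1* and *Mycn*. A site was taken when it lay in the transcribed body of such a gene or within 20 kb of one of its transcript starts (GENCODE M21 basic, mm10). This gave 33 of the 15081 SOX2 sites, 3 of the 1726 HSF1 sites and 2 of the 2141 HSF2 sites. Every one of the 10 genes had at least 2 SOX2 sites. Only *Utf1*, *Lefty2* and *Mycn* had an HSF1 site, and only *Utf1* and *Mycn* an HSF2 site. The other 7 genes had no HSF1 site and the other 8 no HSF2 site in these lists.

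Signal for SOX2, HSF1 and HSF2 was measured by CUT&Tag in wild type cells of JM8, a mouse embryonic stem cell line. In CUT&Tag an antibody guides the Tn5 transposase to the DNA beside a bound protein. Cells were either asynchronous (A), with no drug, or mitotic (M), after 6 h in nocodazole at 50 ng/ml and collection by shake-off, so the drug and the phase cannot be told apart. Over the HSF2 sites there was also signal for Halo-HSF2 (with anti-HSF2 and with anti-HA) and for Halo-H2DBD, its DNA-binding domain (with anti-HA). The anti-HA libraries are from HA-tagged forms of the constructs. All were overexpressed from stably integrated transgenes (the study names the EF1α promoter for its Halo-tagged factors) in *Hsf2* knockout JM8 cells, in A and in M. Each condition had 2 libraries, and the deposited value of a site is the authors' mean over both, in spike-in scaled coverage per base. There are thus no replicates to compare, the depth behind a value cannot be read from the files, and no test between A and M was possible. The change is given as log2 M/A, the log2 of mitotic over asynchronous signal, with no pseudocount. The cell type could not be checked against marker genes, since no expression was measured.

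SOX2 and OCT4 bind side by side on a composite element, where the HMG box of SOX2 contacts a TTGT-like core and the POU domain of OCT4 an adjoining ATG-containing core. The pair maintains the pluripotent state, and the element was worked out on the enhancers of genes such as *Fgf4* and *Utf1*. During mitosis most transcription stops and many factors leave the chromosomes, whereas SOX2 is among those known to remain associated with them. HSF1 and HSF2 are the heat shock factors, which bind inverted GAA units and are best known from chaperone genes.

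The composite element was searched in the GRCm38 sequence of each SOX2 site, on both strands, in an adjacent form (TTGT, 1 base, then ATGNNA) and a spaced form (the same with 4 bases between the cores). Of the 33 sites, 8 held a match: 5 the adjacent and 3 the spaced form. 6 of the 8 are shown because they tie the SOX2 values below to a recognisable sequence. The cores are in capitals, each line reads 5′ to 3′ on the strand of the element, and each run has 30 bases.

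*Lefty2*, upstream (chr1:180888819-180888848, minus): ggggctacttTTGTgATGCAAaagctaggc

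*Utf1*, downstream of the gene (chr7:139945674-139945703, minus): tgagccgtcaTTGTtATGCTAgtgaagtgc

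*Dppa5a*, upstream (chr9:78368851-78368880, plus): gctggtcaaTTGTcATGTAAagagtgagag

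*Fgf4*, 3′ UTR (chr7:144864388-144864417, plus, spaced): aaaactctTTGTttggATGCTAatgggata

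*Fgf4*, upstream (chr7:144857725-144857754, plus, spaced): tttttgttTTGTtttaATGTTAaaatatta

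*Dppa5a*, downstream (chr9:78359740-78359769, minus, spaced): gttcattgTTGTggaaATGAAAgctgtcag

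The *Utf1* and the 3′ UTR *Fgf4* elements share the OCT core ATGCTA, and differ in having 1 or 4 bases before it. The matches at *Dppa4* and *Fbxo15* are not printed. In the whole list 8.18% of SOX2 sites held the adjacent and 1.68% the spaced form, against 15.2% and 9.09% of the 33. The 33 sites were wider (median 399 bp, against 224 bp). In windows of 300 bp centred on each site the adjacent form was found in 9.09% of the 33 (3 sites) and 8.02% of all sites. The spaced form was found in 6.06% (2 sites) and 1.80%. Both of these spaced matches were at *Fgf4*, a gene on which the element was worked out, so they say nothing of the other genes. A match is a description of letters, not proof of a bound site.

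The 33 SOX2 sites carried less signal in mitotic than in asynchronous cells at most positions, whereas the list as a whole carried more. At 2 sites the asynchronous signal was listed at 0, which left 31 with a ratio. Of these, 7 were higher in M (22.6%; the Wilson 95% interval over sites is 11.4% to 39.8%), beside 63.4% of the 14264 SOX2 sites with a ratio. The median log2 M/A was −0.27 for the 31 sites (95% order-statistic interval over sites −0.46 to −0.12) and 0.34 for all sites. A log2 M/A of 1 or more was reached by 1 of the 31 (background 26.8%) and of −1 or less by 4 (background 10.0%). Most changes were small: 64.5% of the 31 lay within 0.5 of 0 on the log2 scale, beside 36.5% of all sites. Sites of a gene are neighbours in the same averaged tracks and are not independent, so these intervals do not cover differences between cultures.

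**Figure D1:**
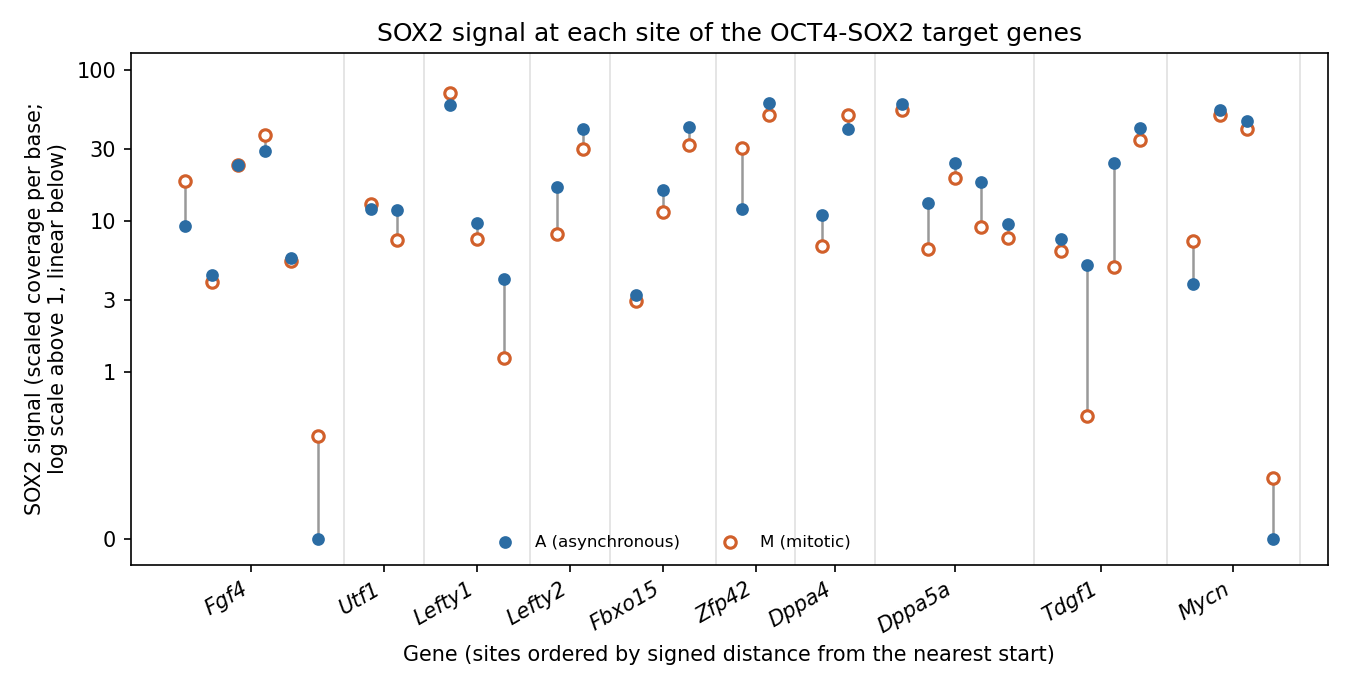
SOX2 signal (scaled coverage per base, log scale above 1 and linear below) at each of the 33 sites, grouped by gene and ordered by signed distance from the nearest start of the gene. Filled points are asynchronous and open points mitotic means over 2 libraries, and the open point is the lower one at 24 of the 31 sites with signal in both.

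Sites of like strength gave the same picture. In the strongest quartile of SOX2 sites by the mean of A and M, 3 of 11 sites of the 10 genes had the higher signal in M, beside 74.0% of the 3770 in that quartile. Their median log2 M/A was −0.13, and that of the quartile 0.49. Among the 9 sites with an asynchronous signal of 40 or more, M was lower at 7, beside 34.0% of the 1408 such sites in the list. The sites taken by the same 20 kb rule around any protein-coding gene, 9609 in all, had a median of 0.31, with 62.3% higher in M. Of the 31 sites with a ratio, 28 ranked lower among the 15081 sites in M than in A, and 3 ranked higher. Their median rank was 4636 in A and 7191 in M, where rank 1 is the strongest. The ranks restate the same A and M values and add no separate result. The share of all SOX2 sites that ranked lower in M was not computed.

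**Figure D2:**
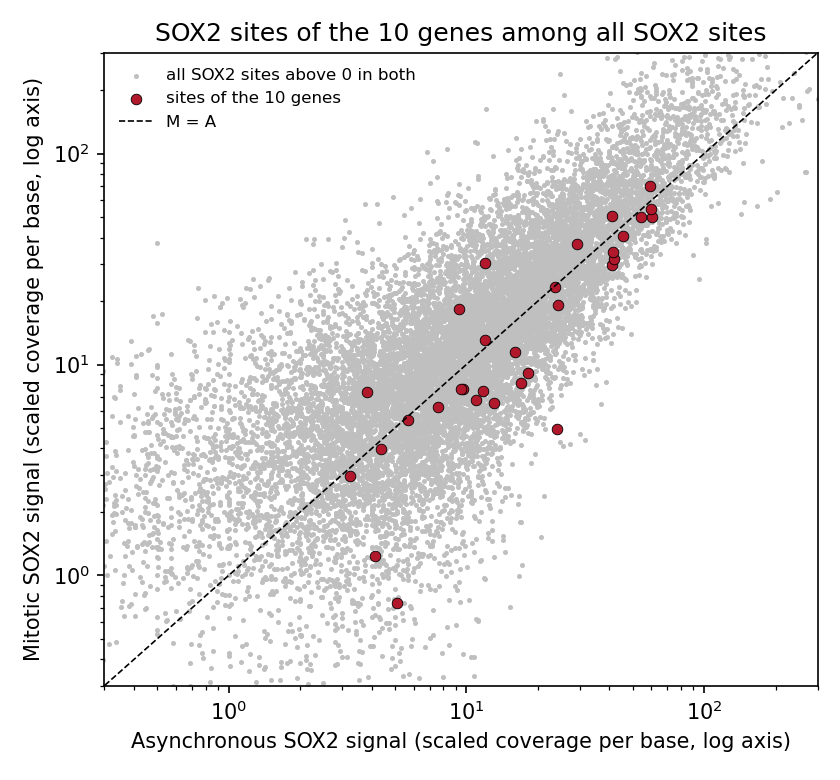
Mitotic against asynchronous SOX2 signal (scaled coverage per base, both axes log) for all SOX2 sites with signal in both (grey; those beyond the axis range are not drawn) and for the 31 sites of the 10 genes (red). The dashed line marks equal signal, and 24 of the red points lie below it.

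**Figure D3:**
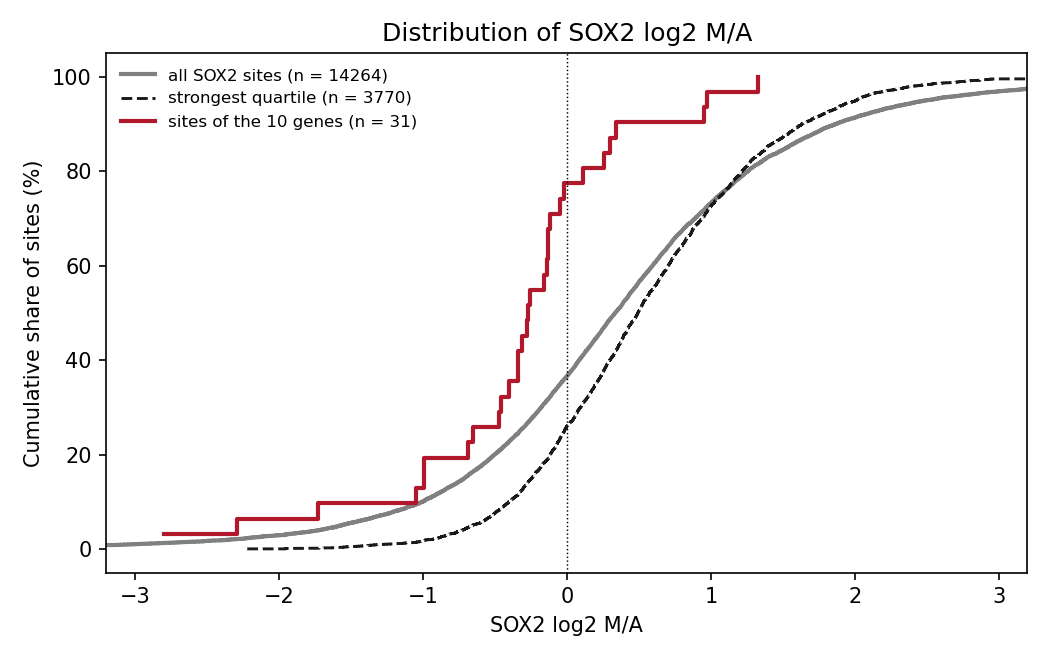
Cumulative share of SOX2 sites (vertical axis, percent) at or below a given log2 M/A (horizontal axis) for all 14264 sites, the 3770 of the strongest quartile and the 31 of the 10 genes; the tails beyond the axis are not drawn. The curve of the 10 genes crosses 0 at 77.4% of its sites, and that of all sites at 36.6%.

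All 7 sites within 1 kb of a start of their own gene had the lower signal in M, with log2 M/A between −0.69 and −0.27, beside 65.9% higher in M among the 1013 sites of the list within 1 kb of a coding start. They belong to *Zfp42*, *Fbxo15* (2 sites), *Lefty1*, *Dppa4*, *Dppa5a* and *Tdgf1*. The background takes a start of any coding gene, which is a wider rule. By that rule a site of *Tdgf1*, 66 bp from a start of *Lrrc2* (−2.29), would also count. So would a site of *Dppa4*, 5 bp from a start of *Dppa2*, which was higher in M (0.30). Of the 24 sites further from a start of their own gene, 7 were higher in M. The 8 sites with a composite element had a median of −0.33 and the 23 others −0.26. The 6 narrowest sites, under 100 bp, included all 4 with a log2 M/A of −1 or less. Of all SOX2 sites under 100 bp with a ratio, 16.1% reached −1 or less and 61.1% were higher in M. Without the 6 the median was −0.21 and 7 of 26 sites (26.9%) were higher in M. All SOX2 sites of 100 bp or wider had a median of 0.33, with 63.9% higher in M.

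**Figure D4:**
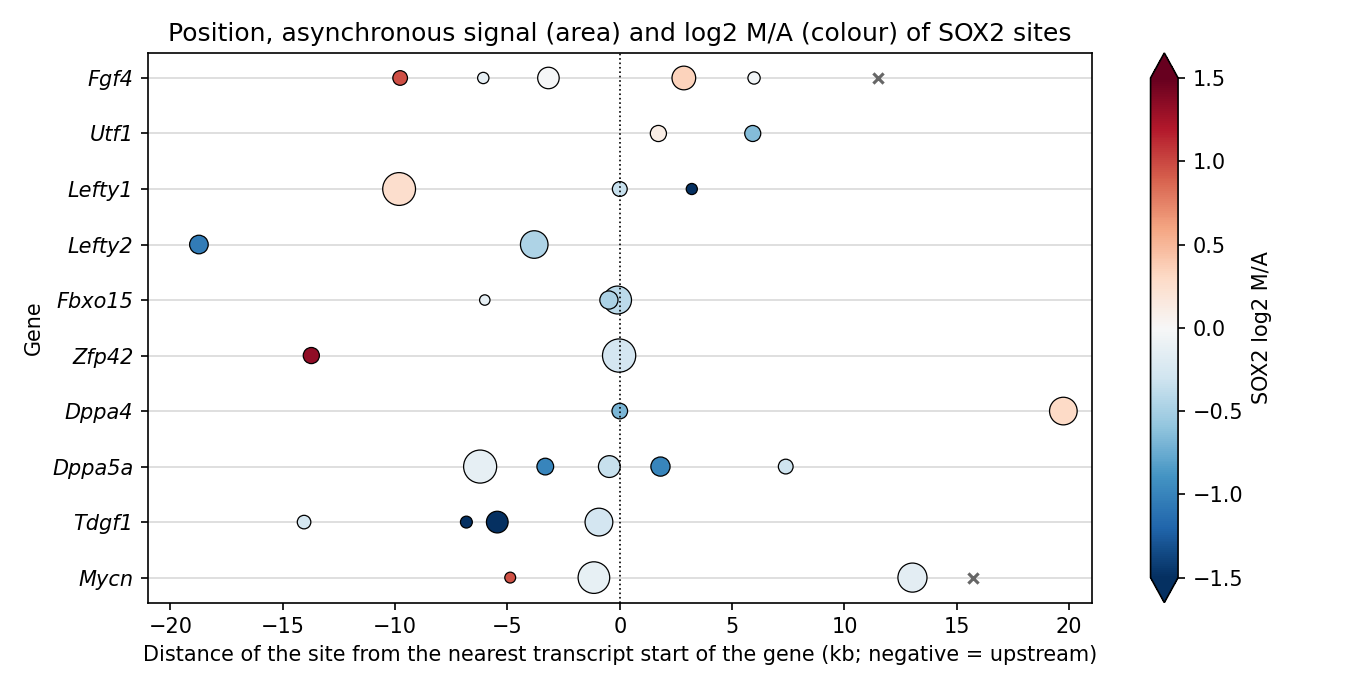
SOX2 sites by distance from the nearest transcript start of their gene (kb, negative upstream), 1 row per gene. Point area grows with asynchronous signal, colour gives log2 M/A (blue lower and red higher in M) and crosses mark the 2 sites listed at 0 in A; the 7 points within 1 kb of the start are all blue.

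*Fgf4* encodes fibroblast growth factor 4, the autocrine ligand that primes stem cells for differentiation. It lies on chromosome 7 from 144861386 to 144865243, plus strand, and had 6 SOX2 sites. The site in its 3′ UTR (144864237 to 144864660), which holds the spaced element shown above, gave 29.3 in A against 37.1 in M, and its log2 M/A of 0.34 equals the list's median. The site 3176 bp upstream (144857212 to 144858210), with the other spaced element, was level, at 23.6 and 23.4 (log2 M/A −0.02). The 3′ UTR site stood at rank 2195 in A and 2468 in M, a smaller move than the 2961 to 4057 of the upstream site. The site 9776 bp upstream gave 9.34 and 18.3 (0.97), and 2 weak sites gave 4.37 and 3.96, and 5.67 and 5.47. A site of 24 bp, 11501 bp downstream of the start, was listed at 0 in A and gave 0.618 in M.

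*Lefty1* and *Lefty2* encode secreted inhibitors of Nodal signalling and lie beside each other on chromosome 1. *Lefty1* (180935022 to 180938400, plus) had the strongest mitotic SOX2 signal of the 33 sites, 9822 bp upstream at 180924652 to 180925200, with 59.0 (A) and 70.6 (M; log2 M/A 0.26, ranks 722 and 1004). The site over its start and 5′ UTR (180933677 to 180935050) was weaker and lower in M, at 9.66 and 7.62 (−0.34). A 99 bp site in its 3′ UTR gave 4.11 and 1.24 (−1.73). *Lefty2* (180893108 to 180899103, plus) had its main site 3808 bp upstream at 180888627 to 180889300, where the adjacent element lies. It gave 40.8 in A and 29.8 in M (−0.46), so the main upstream sites of the neighbours lay on opposite sides of 0. Relative to the median of all SOX2 sites both lay below it, at −0.08 for *Lefty1* and −0.79 for *Lefty2*. A 74 bp site 18733 bp upstream gave 16.9 and 8.18 (−1.05).

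*Tdgf1* encodes Cripto, the co-receptor for Nodal. It lies on chromosome 9 from 110939603 to 110946158, minus strand, and all 4 of its SOX2 sites were lower in M. The site 928 bp upstream (110947086 to 110948334) had 41.4 in A and 34.2 in M (−0.28). The largest negative values of the 31 were here, in a 49 bp site 66 bp from a start of the neighbouring gene *Lrrc2* (24.1 and 4.92, −2.29) and in a 24 bp site in an intron of *Lrrc2* (5.12 and 0.737, −2.80). Means over such short stretches rest on few bases. The fourth site, 14053 bp upstream over a coding exon of *Lrrc2*, gave 7.56 and 6.31 (−0.26).

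*Zfp42* encodes REX1, a zinc finger protein used as a marker of naive cells. It lies on chromosome 8 from 43295063 to 43306980, minus strand. The site that ends 30 bp upstream of its start (43307010 to 43307258) had the highest asynchronous SOX2 signal of the 33, 60.6, at rank 692. In mitotic cells it stood at 50.1 and rank 1677 (−0.27). The sequence of the whole 249 bp, on the gene's strand, is shown because this site held no composite element in either form. It held an octamer (ATGCAAAT on the other strand, in capitals), the sequence OCT4 binds alone, 215 bp upstream of the start. The octamer was looked for after the site's values were known. It was found in 8.66% of 300 bp windows over all SOX2 sites and in 6.06% of those of the 33. In their whole width 4 of the 33 held it, beside 1291 of all 15081 SOX2 sites, which were narrower (median 224 bp against 399 bp). The others of the 4 were at *Lefty1* (over the start), *Tdgf1* (928 bp upstream) and *Mycn* (4877 bp upstream).

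*Zfp42* site (chr8:43307010-43307258, minus): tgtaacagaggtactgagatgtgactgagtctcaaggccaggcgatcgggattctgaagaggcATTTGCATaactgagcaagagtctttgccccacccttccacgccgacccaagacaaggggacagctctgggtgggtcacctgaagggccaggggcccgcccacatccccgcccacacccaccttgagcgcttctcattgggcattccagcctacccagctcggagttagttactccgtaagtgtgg

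The other *Zfp42* site, 13730 bp upstream, had the largest positive value of the 31, with 12.0 in A and 30.3 in M (1.33). In M it ranked 3140, up from 6025.

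*Utf1* encodes a chromatin-associated protein of undifferentiated cells, on chromosome 7 from 139943789 to 139945112, plus strand. The site 1718 bp downstream of its start and beyond its end (139945507 to 139945905), with the adjacent element, had 12.0 in A and 13.0 in M (0.11). Of the strongest sites of the 10 genes it had the lowest signal in both phases, at ranks 6031 and 6630. The second site (139949707 to 139950730), over an exon of the noncoding transcript *Gm16201*, had 11.8 and 7.51 (−0.65).

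*Dppa4* encodes a SAP-domain nuclear protein, on chromosome 16 from 48283735 to 48294237, plus strand. The site over its start and 5′ UTR (48283480 to 48283803) had 11.0 in A and 6.82 in M (−0.69), the largest drop among the 7 start sites. The other site in reach (48303530 to 48303903) was stronger, 41.0 and 50.4 (0.30), but lies 5 bp from a start of *Dppa2*, the neighbouring gene that works together with *Dppa4*. At 19743 bp it was also the outermost site taken. The nearest site left out, 26568 bp from the *Dppa4* start, gave 18.0 and 25.2 (0.48).

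*Mycn* encodes N-MYC, a growth-promoting transcription factor, on chromosome 12 from 12936093 to 12941914, minus strand. Its 2 strong SOX2 sites kept most of their signal. The one 1152 bp upstream (12943066 to 12943814) had 54.5 in A and 50.2 in M (−0.12), and the one 13027 bp downstream (12927141 to 12927589) 45.7 and 40.9 (−0.16). Of the weak sites, one 4877 bp upstream gave 3.81 and 7.37 (0.95) and one 15702 bp downstream was listed at 0 in A and gave 0.369 in M.

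*Fbxo15*, an F-box gene known as a reporter of pluripotency, lies on chromosome 18 from 84934782 to 84981473, plus strand. Its main SOX2 site ends 100 bp upstream of the first start (84933784 to 84934682) and held an adjacent element. Signal there was 41.9 (A) and 31.7 (M; −0.40). The 2 intronic sites were lower in M too, at 16.0 and 11.5 (−0.47, over a start of *Timm21*) and at 3.25 and 2.96 (−0.13).

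*Dppa5a* encodes a KH-domain RNA-binding protein, on chromosome 9 from 78367052 to 78368177, minus strand. All 5 of its SOX2 sites were lower in M. The site 466 bp upstream (78368643 to 78369766), with an adjacent element, had 24.3 in A and 19.2 in M (−0.34). The strongest lay 6216 bp upstream (78374393 to 78375291), nearer to a start of *Ooep*, with 59.9 and 54.8 (−0.13). The site 1811 bp downstream had 18.2 and 9.16, and that 3316 bp upstream 13.1 and 6.57, each a log2 M/A of −0.99. The site with the spaced element, 7386 bp downstream, had 9.53 and 7.68 (−0.31).

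Taken gene by gene, with the signal averaged over all its sites by width, SOX2 was lower in M for 6 genes and higher for 4, and only *Zfp42* lay above the median log2 M/A of all SOX2 sites. The values ran from −0.48 at *Lefty2*, −0.40 at *Fbxo15*, −0.39 at *Utf1*, −0.37 at *Dppa5a*, −0.30 at *Tdgf1* and −0.11 at *Mycn* to 0.10 at *Lefty1*, 0.16 at *Fgf4* and *Dppa4* and 0.37 at *Zfp42*. A gene's value is a ratio of width-weighted means, whereas the list's median (0.34) is over ratios of single sites, so the measures are unlike. Without replicates, neighbours in this order cannot be told apart. In the 4 genes above 0, the sites higher in M lay over 1 kb from a start of the gene. This follows from the 7 sites within 1 kb all being lower in M.

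Other pluripotency genes gave differing values. Around 12 genes of core pluripotency factors (*Pou5f1*, *Sox2*, *Nanog*, *Klf4*, *Klf2*, *Klf5*, *Esrrb*, *Tfcp2l1*, *Tbx3*, *Prdm14*, *Sall4* and *Nr5a2*; none at *Klf5*) there were 35 SOX2 sites. Of 34 with a ratio, 14 were higher in M (41.2%), with a median log2 M/A of −0.14. Around 9 other pluripotency-associated genes (*Dppa2*, *Dppa3*, *Gdf3*, *Nodal*, *Tdh*, *L1td1*, *Lin28a*, *Spp1* and *Trim28*; none at *Lin28a*) there were 14, of which 11 were higher in M (78.6%), with a median of 0.26. These include the *Dppa2* site also counted for *Dppa4*. No difference between these lists and the 10 genes was tested.

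HSF1 was found at 3 of the 10 genes and HSF2 at 2 of these, in each case over an interval that contains a SOX2 site. HSF intervals overlapped 3 of the 33 SOX2 sites for HSF1 (9.09%, beside 3.97% of all SOX2 sites) and 2 for HSF2 (6.06%, beside 2.86%). These shares rest on 3 and 2 sites and were not adjusted for width. The 33 SOX2 sites were wider than the list (median 399 bp, against 224 bp). Of the 3 HSF1 sites, 2 were lower in M (background 91.9%), and of the 2 HSF2 sites 1 was higher (background 72.2%). All 3 HSF1 sites lay above the list's median log2 M/A of −0.62 and both HSF2 sites below theirs of 0.49. The HSF1 peak list carries other means of the same intervals, higher in A and lower in M at all 3 than the values used here. Why the sets of means differ was not tested. In the peak list all 3 were lower in M: −1.82 at *Utf1*, −2.58 at *Mycn* and −3.84 at *Lefty2*, beside a median of −2.41. Only *Utf1* lay above the median in those values. HSF1 was thus lower in M at *Mycn* and *Lefty2* in both sets of means, whereas its direction at *Utf1* depends on the set. The positions of *Mycn* and *Lefty2* relative to the median depend on the set too.

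At *Utf1* the HSF1 interval (139948865 to 139951344) had 3.30 in A and 3.68 in M (0.16), and moved from rank 1353 to 965 of 1726. The HSF2 interval there (139948662 to 139951623) had 9.52 and 10.0 (0.08; ranks 368 and 426 of the 2141). The SOX2 site inside both was the one with a log2 M/A of −0.65. At *Mycn* both intervals span the upstream region, the start and part of the gene body. HSF1 (12939856 to 12944225) had 5.78 and 4.90 (−0.24; ranks 923 and 680), and HSF2 (12939570 to 12944492) 6.67 and 4.80 (−0.47; ranks 591 and 1365). At *Lefty2* HSF1 (180887945 to 180890058) had 7.96 and 5.69 (−0.48), near the −0.46 of the SOX2 site within it. In the peak list's means the HSF1 value there was −3.84. Relative to the median of its own list, HSF1 stood at 0.14 and the SOX2 site at −0.79. By rank in M, all 3 HSF1 sites stood higher in their list than in A.

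The *Utf1* and *Mycn* intervals, in both lists, held a heat shock element of 3 inverted GAA units, 2 bases apart, and the *Lefty2* interval did not. Such an element was found in 16.0% of the HSF1 and 14.2% of the HSF2 sites. These shares are over whole intervals and were not adjusted for width. The *Utf1* and *Mycn* intervals were wider than most, at 2480 and 4370 bp for HSF1 (median 1938 bp). For HSF2 they had 2962 and 4923 bp (median 2396 bp). At *Utf1* the element lies 456 bp from the SOX2 site and at *Mycn* 87 bp from it, 1993 bp upstream of the start. They are shown, with the GAA and TTC units in capitals, to set beside the composite elements above.

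*Utf1* (chr7:139949231-139949260, plus): ggatttcaGAAtgTTCtaGAActcacctga

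*Mycn* (chr12:12943893-12943922, minus): agttctgaGAAgaTTCtaGAAagccagatg

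**Figure D5:**
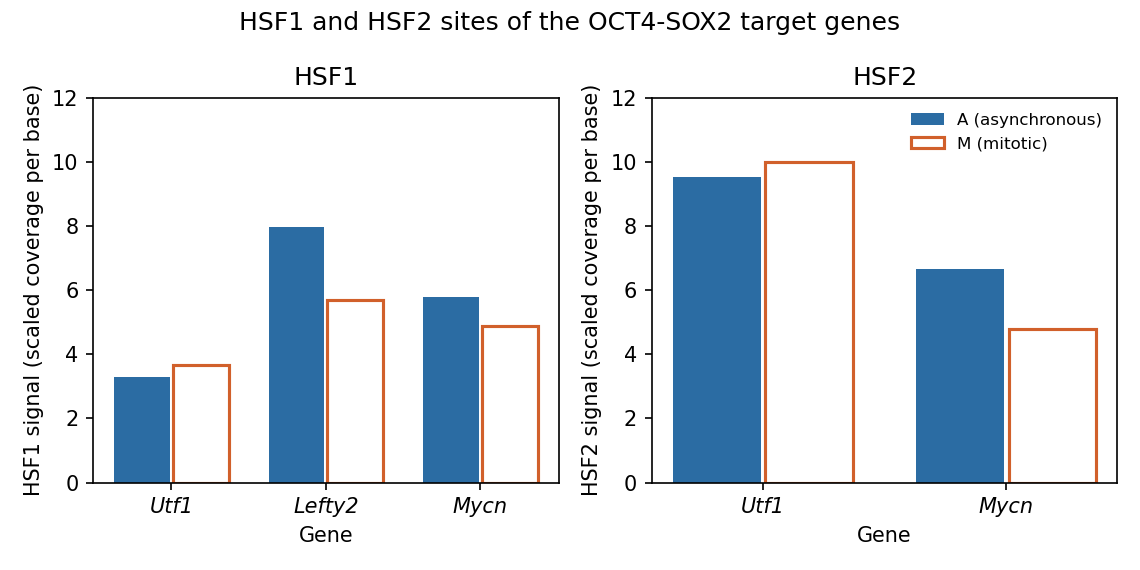
HSF1 (left) and HSF2 (right) signal in scaled coverage per base at the sites of the 10 genes. Bars are the authors' means over 2 libraries, filled for asynchronous and open for mitotic cells; at *Utf1* the mitotic bar is the higher one for both factors, and at *Lefty2* and *Mycn* the lower one. In the peak list's own means HSF1 was lower in M at *Utf1* too (−1.82).

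The HSF2 constructs in *Hsf2* knockout cells gave low signal over both HSF2 sites. At *Utf1*, Halo-HSF2 had 1.33 in A and 0.798 in M with anti-HSF2 (−0.74), and 0.733 and 1.21 with anti-HA (0.72), so the tracks, which differ in antibody and in the tagged form, had opposite directions there. Halo-H2DBD had 0.659 and 0.965 there (0.55). At *Mycn* the values were 0.512 and 0.609 (0.25) for Halo-HSF2 with anti-HSF2, 0.996 and 1.08 (0.12) with anti-HA, and 0.942 and 0.920 (−0.03) for Halo-H2DBD. Between 3.22% and 39.0% of the HSF2 sites had a lower signal of the same kind, over A and M. For endogenous HSF2 the share was 82.8% in A and 80.1% in M at *Utf1*. At *Mycn* it was 72.4% in A and 36.2% in M, and the share in M lies within the range of the constructs. Cells without the constructs were not analysed here, so the background of these low values is unknown.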

How the data were processed

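CUT&Tag values of 12 of the 19 conditions (38 libraries, 2 per condition) were used. According to the methods, the authors aligned reads with Bowtie2 to mm10 and to dm6 for the Drosophila spike-in, kept PCR duplicates, and scaled coverage by spike-in reads. Per the file headers, the deposited signal of a site is averaged over replicates, so levels are relative to the spike-in and the depth behind a value cannot be read from the files. Read numbers that the study lists for some libraries were not used here. HSF sites, combined from A and M, were called with SEACR against IgG, and SOX2 sites came from the literature. BED starts were made 1-based. From these values log2 M/A, ranks, counts and medians were computed with Python 3.11.15, numpy 2.4.6, pandas 2.3.3 and scipy 1.17.1, and plotted with matplotlib 3.10.9. No test was run, since sites are not replicates. Sequence was read from GRCm38, the build of mm10. The elements of *Dppa4*, which lies at its start with no RefSeq promoter entry, and of *Fbxo15* were not printed. Site assignment, the motif search and the median interval were tested on simulated data. Members, lists and motifs were chosen with earlier results of these data known. All 10 genes are named, with every HSF site. The alternatives were pseudocounts, a minimum signal, centring, other reaches, other ways of counting sites and the means that the HSF1 and HSF2 peak lists carry. The 7 other conditions, among them IgG, were not analysed here. 1 gene of a comparison list is not reported here and was left out of its counts.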

Additional observations from a re-analysis of the deposited data

How the results depend on the processing

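For SOX2 the median log2 M/A (−0.27) stayed below 0 and fewer than 50% of sites were above 0 under every alternative run. The median moved to −0.61 when centred on the median of all SOX2 sites and to −0.57 when centred on the weakest quartile, as both subtract a positive shift (0.34 and 0.30). It was nearer to 0 with a 50 kb reach (−0.14, with 35.9% above 0). Counting genes by their width-weighted mean (−0.20) or by their strongest site (−0.12) put 40% above 0. The 2 centrings turned the upstream *Lefty1* site from 0.26 to −0.08 and −0.04. For HSF1 the centrings turned the median to 0.39 and 0.36, with 0% of the 3 sites below 0. The peak list's own means gave −2.58 with 100% below 0, as did the 2 sites within a 5 kb reach (100%). For HSF2 the centrings gave −0.69 and −0.91, with 0% above 0. Over the same 2 sites the median of Halo-HSF2 with anti-HSF2 went from −0.24 to −0.88 and −0.77 when centred in the same order, and stayed below 0. With anti-HA it went from 0.42 to −0.14 and −0.27, so the anti-HA direction depends on the scaling. Halo-H2DBD (0.26) kept its direction. Leaving out sites under 100 bp was added after the data were seen. Leaving out a replicate could not be run, and no paired analysis was possible because the deposited columns hold averages of both replicates. Medians over 2 or 3 sites describe those sites only.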

Other observations

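Across the whole SOX2 list, the sites with a composite element in either form had a median log2 M/A of 0.23 (1375 sites with a ratio, 59.8% higher in M) and those without it of 0.35 (12889 sites, 63.8%). Sites within 1 kb of a coding start had a median of 0.43 and the others of 0.33. These values were not tested, and neither group reaches the negative median of the sites around the 10 genes.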
